A study of Moricandia suffruticosa and Brassica napus with 23 samples.

Results

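The genes described here are the oilseed rape (Brassica napus) copies of 10 Arabidopsis clock loci that act through the day and evening, PRR9, PRR7, PRR5, PRR3, TOC1, GI, ELF3, ELF4, LUX and ZTL. They were taken as every row of the deposited table whose best Arabidopsis match was 1 of these loci, a match that uses no expression value. The list of 10 loci was itself chosen with earlier results of these data known. Of the 101040 genes in the table, 40 were such copies, and they fell on 9 of the 10 loci. ZTL (AT5G57360) was carried by no row and was not analysed here. Polyadenylated RNA was sequenced from leaves of plants kept 35 days in soil at 25 °C, 60% humidity and 16 h of light, with 3 libraries in each of 3 groups. Heat plants were held at 40 °C for 3 h, drought plants had no water for 3 days, and control plants were not treated. The series holds 23 samples, of which 14 from Moricandia suffruticosa were not analysed here.

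In Arabidopsis the circadian clock is a circuit of transcription factors that repress each other in sequence over the day. The morning MYB factors CCA1 and LHY repress the day and evening genes, and the pseudo-response regulators follow in turn, PRR9 in the morning, PRR7 and PRR5 later in the day and TOC1 in the evening, and repress CCA1 and LHY. ELF3, ELF4 and LUX form the evening complex, a repressor of PRR9, PRR7 and GI, and the large protein GI acts with the blue-light receptor ZTL, which marks TOC1 and PRR5 for breakdown. The labels give no hour of harvest and do not say whether the groups were taken at the same hour, so that treatment and hour of the day cannot be told apart in any difference given here. Nor is it stated that libraries of the same group are of different plants, so the p-values reflect only how these libraries vary.

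Levels are FPKM (reads scaled to coding length and to the assigned reads of the library), and the copies of 1 locus were summed in each library. A locus or copy was called where limma gave an adjusted p under 0.05 and a change of at least 1 in size in log2(FPKM + 1). With this pseudocount the change of a gene near or under 1 FPKM is understated. Shares over all features are given for calls only. Counts at an unadjusted p, or without the size limit, have no such share beside them and cannot be read against those shares. Each library had 12173802 to 12934921 assigned reads, and a single read on 1 kb is worth between 0.0773 and 0.0821 FPKM. Replicates of a group correlated at 0.983 to 0.986 across genes, and no library stood apart by these correlations. Drought replicate 3 differed more from its group by another measure, the variance between 2 replicates over that of read sampling. It was 1.88 and 1.90 for the pairs with drought replicate 3, and 1.44 for drought replicates 1 and 2. The leaf label was checked with marker lists. The summed level of 5 mesophyll genes was 41493 to 42366 FPKM in heat, 27246 to 27977 FPKM in drought and 38760 to 39573 FPKM in control, that of 5 phloem genes 1126 to 1164 in heat, 865 to 885 in drought and 961 to 1033 in control. The mesophyll genes did not move together. CAB1, LHCB1.4 and LHCB2.1, which encode light-harvesting proteins, rose in heat by 1.10 to 1.38 and fell in drought by 1.10 to 1.66 against control. RCA, the Rubisco activase, averaged 8288 ± 130.1 FPKM in heat, 21870.1 ± 570.4 in drought and 24731 ± 134.7 in control, and fell by 1.58 in heat against control. RBCS1A, also on the mesophyll list, was near the floor and adds almost nothing to the sum. It averaged 0.77 ± 0.449 FPKM in heat, 2.76 ± 0.759 in drought and 2.40 ± 0.471 in control, and was called lower in heat against drought (-1.10). For 5 guard cell genes the sum was 74.2 to 79.0 FPKM in heat, 77.4 to 89.9 in drought and 75.3 to 78.3 in control. Root genes summed to at most 28.5 FPKM, flower genes to at most 2.98 FPKM and seed storage genes to at most 0.162 FPKM. The part of these marker levels in the clock results was not tested, and in bulk leaf fewer cells of a type and less RNA per cell cannot be told apart.

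In heated leaves 7 of the 9 loci rose and 0 fell against control. The 7 were PRR7, PRR5, PRR3, TOC1, GI, ELF3 and LUX, and PRR9 and ELF4 were not called. Among all 16186 loci tested, 14.5% were called higher and 10.4% lower in heat, 2340 and 1678 loci. The median change of the 9 was 1.54, against 0.19 for all loci. Scaling the libraries by TMM (trimmed mean of M-values) factors moved the median of all loci by -0.17 and turned the split to 1766 higher (10.9%) and 2089 lower (12.9%), so that changes in heat are also given relative to the median of all loci. On that footing PRR5 changed by 2.87, PRR3 by 2.68, TOC1 by 2.34, LUX by 1.44, GI by 1.35, PRR7 by 1.32 and ELF3 by 0.94. ELF3 was at 0.95 with TMM factors and was not called there, and the other 6 were. At an unadjusted p under 0.05 the limma fit also had 0 loci lower in heat. Limma's voom on the recovered reads called 0 lower, where it called 2201 of all 16166 loci lower.

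Drought called 0 of the 9 loci in either direction, where 5.08% of all loci were called higher and 7.31% lower. The shares just given hold for calls only, and not for the looser limits that follow. At an unadjusted p under 0.05 limma had 6 loci higher and 2 lower, and at an adjusted p under 0.05 with no limit on size it had 5 higher (PRR9, PRR5, TOC1, GI and ELF4) and 2 lower (PRR7 and PRR3). That list moved with the scaling, since PRR7 did not pass with TMM factors (-0.07, adjusted p = 0.402) or quantile normalization (-0.15, adjusted p = 0.0626), while ELF3 passed with both (adjusted p = 0.0112 and 0.0185) and LUX with quantile normalization. With voom on the recovered reads 1 was called higher, PRR5, and 1 lower, PRR3. Over all 16166 loci in its fit, voom called 1037 higher and 1720 lower. The median change of the 9 in drought was 0.45, against -0.05 for all loci.

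Heat against drought gave 5 loci higher (PRR7, PRR5, PRR3, TOC1 and LUX) and 0 lower, where 18% of all loci were called higher and 10.2% lower. With TMM factors the median of all loci moved by -0.25 in this comparison, and 12.5% were called higher and 14.4% lower. At an unadjusted p under 0.05 limma had 7 loci higher and 1 lower, PRR9, and voom called 0 lower, where it called 2064 of all 16166 loci lower. Heat and drought were set against the same 3 control libraries, so the comparisons are not independent.

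**Figure D1:**
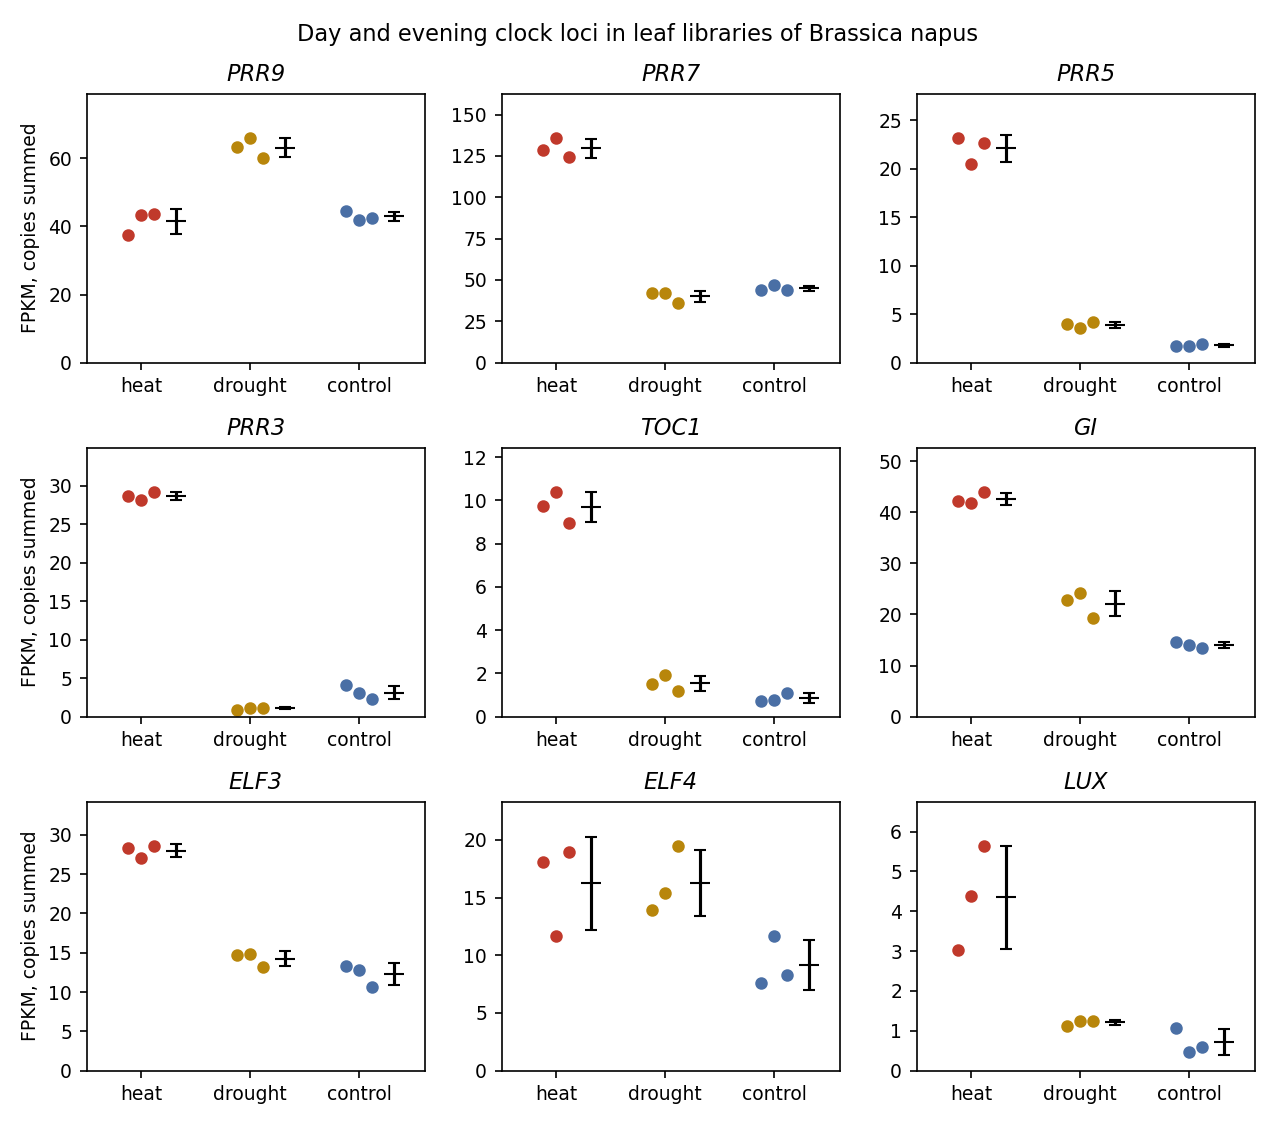
Level of each clock locus (FPKM, copies summed; vertical axis from 0) in the 3 heat, 3 drought and 3 control libraries, 1 point per library, with the group mean and SD as a bar to the right. The heat points lie above all others for PRR7, PRR5, PRR3, TOC1, GI, ELF3 and LUX, while for PRR9 the drought points are highest and for ELF4 the heat and drought points overlap.

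PRR9 (AT2G46790), the pseudo-response regulator that peaks earliest in the Arabidopsis day, had the smallest change in heat of the 9. Its sum was 37.3, 43.3 and 43.7 FPKM in heat, 63.1, 65.8 and 60.2 FPKM in drought, and 44.5, 42.0 and 42.4 FPKM in control. The drought libraries lay above both other groups, and heat and control overlapped. The change was -0.05 ± 0.065 (SE) in heat against control (adjusted p = 0.465), 0.54 ± 0.065 in drought against control (adjusted p = 1.22e-05) and -0.60 ± 0.065 in heat against drought (adjusted p = 2.7e-06), all under the size asked for a call. These sums rest on 2300 reads in heat, 3263 in drought and 2344 in control.

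The tested PRR9 copies moved in 2 different ways. BnaC04g00640D averaged 6.47 ± 1.23 FPKM in heat, 16.9 ± 1.08 in drought and 8.89 ± 0.505 in control (SD, n = 3 each), and BnaA05g01090D averaged 5.08 ± 0.795 in heat, 13.5 ± 1.08 in drought and 7.25 ± 0.482 in control. Both fell in heat against drought, with log2 changes of -1.28 ± 0.117 (adjusted p = 2.01e-06) and -1.26 ± 0.114 (adjusted p = 1.86e-06). The most abundant copy, BnaA04g26750D, averaged 25.3 ± 1.44 FPKM in heat, 27.8 ± 1.98 in drought and 23.1 ± 0.735 in control, and BnaC04g51630D averaged 4.17 ± 0.583 in heat, 4.57 ± 0.463 in drought and 3.72 ± 0.511 in control. Neither was called in any comparison, although BnaA04g26750D had a change of 0.25 in drought against control (adjusted p = 0.0145). BnaA04g26750D made up 61.1% of the PRR9 sum in heat, 44.1% in drought and 53.8% in control.

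PRR7 (AT5G02810), a repressor of CCA1 and LHY that is also known for its part in how the Arabidopsis clock responds to temperature, was the most abundant member in heat. Its sum was 128, 136 and 124 FPKM in heat, 42.1, 42.0 and 36.1 FPKM in drought, and 43.7, 46.9 and 43.9 FPKM in control. Every heat library was far above the other groups, and the drought libraries lay just below the control libraries. PRR7 rose in heat by 1.51 ± 0.064 against control (adjusted p = 2.61e-10), 2.89 times the control mean, and by 1.67 ± 0.064 against drought (adjusted p = 7.97e-11). The change in drought against control was -0.16 ± 0.064 (adjusted p = 0.0467).

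The rise of PRR7 was spread unevenly over its 4 copies, all of which cover at least 97.2% of the Arabidopsis protein. BnaA10g26930D, the main copy, had 62.2, 63.7 and 61.0 FPKM in heat, 34.8, 33.7 and 28.6 FPKM in drought, and 34.3, 36.9 and 34.8 FPKM in control, a change of 0.80 ± 0.074 in heat against control that did not reach the size for a call. BnaCnng03230D had 33.3, 36.4 and 31.2 FPKM in heat, 3.98, 5.16 and 3.98 FPKM in drought, and 4.45, 4.82 and 3.96 FPKM in control. BnaAnng00500D had 25.7, 27.6 and 24.3 FPKM in heat, 1.38, 1.4 and 1.58 FPKM in drought, and 2.57, 2.89 and 2.72 FPKM in control. For the last 2 copies the heat libraries held many times the level of either other group, and they rose by 2.68 ± 0.113 and 2.85 ± 0.099 in heat against control (adjusted p = 3.25e-09 and 6.22e-10). BnaC02g03470D, the least abundant, averaged 7.62 ± 0.386 FPKM in heat, 1.90 ± 0.126 in drought and 2.36 ± 0.065 in control and rose by 1.36 ± 0.104 against control. The share of BnaA10g26930D in the PRR7 sum was 48.1% in heat, 80.7% in drought and 78.8% in control.

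PRR5 (AT5G24470), which represses CCA1 and LHY in the afternoon and helps TOC1 into the nucleus in Arabidopsis, had the largest change of the 9 loci in heat against control. Its sum was 23.1, 20.5 and 22.7 FPKM in heat, 4.01, 3.53 and 4.17 FPKM in drought, and 1.71, 1.69 and 1.96 FPKM in control. The groups were fully apart, with heat highest and control lowest. PRR5 rose by 3.05 ± 0.104 in heat against control (adjusted p = 3.11e-11), 12.4 times the control mean, and by 2.24 ± 0.104 in heat against drought (adjusted p = 5.44e-10). In drought against control the change was 0.82 ± 0.104 (adjusted p = 2.05e-05), 2.19 times the control mean, and it passed the size limit with a pseudocount of 0.1 (1.09) and with voom (1.29).

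A different PRR5 copy held the largest share in each group. BnaC07g29960D led in heat with 43.4% of the sum, BnaA06g26980D in drought with 43.5%, and BnaA02g32550D in control with 58.9%. BnaA06g26980D had 5.92, 5.07 and 5.46 FPKM in heat, 1.37, 1.71 and 2.02 FPKM in drought, and 0.151, 0.224 and 0.0752 FPKM in control, where it rests on 12 reads. Its groups did not overlap, and it rose by 2.49 ± 0.137 in heat (adjusted p = 2.88e-08) and by 1.23 ± 0.137 in drought (adjusted p = 2.13e-05) against control. BnaC07g29960D had 9.79, 9.62 and 9.34 FPKM in heat, 1.18, 0.436 and 1.12 FPKM in drought, and 0.424, 0.280 and 0.329 FPKM in control, and rose by 2.98 ± 0.164 in heat against control. BnaA02g32550D varied least of the 3, with 2.98 ± 0.598 FPKM in heat, 1.15 ± 0.176 in drought and 1.05 ± 0.211 in control, a change of 0.95 ± 0.152 in heat against control that was called with a pseudocount of 0.1 (1.41), with voom (1.44), without control replicate 3 (1.03) and without heat replicate 2 (1.05). BnaA09g04840D averaged 2.39 ± 0.452 FPKM in heat on 137 reads, against 4 reads in drought and 3 in control, and BnaC09g04380D averaged 1.24 ± 0.337 FPKM in heat on 73 reads, against 4 reads in drought and 10 in control. Both passed the filter on low values through the heat libraries alone.

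PRR3 (AT5G60100), a pseudo-response regulator known in Arabidopsis to bind TOC1 and to be expressed mainly along the veins, was the member in which heat and drought lay furthest apart. Its sum was 28.6, 28.1 and 29.2 FPKM in heat, 0.912, 1.19 and 1.14 FPKM in drought, and 4.08, 3.05 and 2.29 FPKM in control. All heat libraries were above and all drought libraries below the control range. PRR3 rose by 2.86 ± 0.144 in heat against control (adjusted p = 1.38e-09), 9.12 times the control mean, and by 3.83 ± 0.144 in heat against drought (adjusted p = 6.45e-11), 26.5 times the drought mean. In drought against control the change was -0.97 ± 0.144 (adjusted p = 7.51e-05), 0.344 times the control mean, just short of a call. It was called lower without control replicate 3 (-1.13), without drought replicate 2 (-1.01), with a pseudocount of 0.1 (-1.43) and with voom (-1.49). Depth was 1583 reads in heat, 58 in drought and 173 in control. The summed phloem markers, given above, were also lowest in drought and highest in heat, but of the 5 genes this order held for SUC2, SWEET11 and SWEET12 and not for SEOR1 and APL. SEOR1, a sieve element protein, was the 1 phloem gene called in heat or drought against control, with 16.2 ± 0.972 FPKM in heat, 28.6 ± 2.46 in drought and 50.2 ± 1.33 in control, and it fell by 1.58 in heat against control. The part of these markers in the PRR3 result was not tested.

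Both expressed PRR3 copies followed the sum. BnaC09g35410D, the more abundant, had 16.2, 15.5 and 13.5 FPKM in heat, 0.522, 0.916 and 0.718 FPKM in drought, and 1.89, 2.15 and 1.39 FPKM in control, and rose by 2.52 ± 0.143 in heat against control (adjusted p = 4.02e-08). BnaA10g12930D had 12.5, 12.6 and 15.7 FPKM in heat, 0.390, 0.275 and 0.424 FPKM in drought, and 2.19, 0.899 and 0.905 FPKM in control, and rose by 2.68 ± 0.196 (adjusted p = 3.34e-07). The remaining copy, BnaA02g06500D, covers 18.8% of the Arabidopsis protein and was at 0 in all 9 libraries.

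TOC1 (AT5G61380), the evening pseudo-response regulator that represses CCA1 and LHY, was scarce outside heat. Its sum was 9.73, 10.4 and 8.97 FPKM in heat, 1.52, 1.91 and 1.21 FPKM in drought, and 0.702, 0.758 and 1.11 FPKM in control. Heat libraries were well above the rest, and the lowest drought library was just above the highest control library. TOC1 rose by 2.53 ± 0.145 in heat against control (adjusted p = 4.88e-09), 11.3 times the control mean, and by 2.08 ± 0.145 in heat against drought (adjusted p = 3.06e-08). The change in drought against control was 0.45 ± 0.145 (adjusted p = 0.0167), on 93 reads in drought and 53 in control. All 3 copies were called higher in heat against control, BnaCnng43250D by 2.08, BnaA03g40160D by 1.61 and BnaC09g05250D by 1.41, but all 3 passed the filter only through the heat libraries, so their calls add nothing to that of the sum. The most abundant, BnaCnng43250D, had 4.53, 4.40 and 4.0 FPKM in heat, 0.429, 0.706 and 0.364 FPKM in drought, and 0.183, 0.317 and 0.274 FPKM in control. The largest share outside heat lay with BnaC09g05250D, at 39.2% of the sum in drought and 36.5% in control.

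GI (AT1G22770), the large evening protein that links the clock to flowering through CONSTANS, was ordered heat over drought over control with no overlap. Its sum was 42.3, 41.7 and 43.9 FPKM in heat, 22.9, 24.1 and 19.4 FPKM in drought, and 14.6, 14.0 and 13.5 FPKM in control. GI rose by 1.54 ± 0.079 in heat against control (adjusted p = 1.81e-09), 3.04 times the control mean. The drought change was 0.62 ± 0.079 (adjusted p = 2.26e-05) and the change in heat against drought 0.92 ± 0.079 (adjusted p = 2.55e-07), both under the size for a call. GI has 1 copy in each of the parental genomes, with proteins of 1171 and 1170 residues. BnaA09g30390D averaged 26.5 ± 0.839 FPKM in heat, 16.0 ± 1.47 in drought and 10.1 ± 0.189 in control, and BnaC05g18020D averaged 16.1 ± 0.748 in heat, 6.14 ± 1.0 in drought and 3.92 ± 0.401 in control. They rose in heat against control by 1.31 ± 0.080 and 1.80 ± 0.118, and BnaC05g18020D was also called higher in heat against drought (1.27).

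ELF3 (AT2G25930), the scaffold of the evening complex and in Arabidopsis a protein whose activity depends on temperature, changed less in heat than the members above it except PRR9. Its sum was 28.4, 27.0 and 28.5 FPKM in heat, 14.7, 14.9 and 13.2 FPKM in drought, and 13.3, 12.8 and 10.7 FPKM in control. The heat libraries were apart from the rest, and drought and control overlapped. ELF3 rose by 1.13 ± 0.088 in heat against control (adjusted p = 9.98e-08), a call that ended with TMM factors as given above. Heat against drought gave 0.93 ± 0.088 (adjusted p = 6.39e-07) and drought against control 0.20 ± 0.088 (adjusted p = 0.0626). The 4 copies changed by 0.85 to 1.24 in heat against control, and 1 of them was called. The other 3 were called too with a pseudocount of 0.1 (1.06 to 1.12) and with voom (1.05 to 1.11). The 1 was BnaCnng51090D, with 4.05, 4.56 and 4.47 FPKM in heat, 1.29, 1.71 and 1.27 FPKM in drought, and 1.28, 1.36 and 1.18 FPKM in control. The most abundant copy, BnaA04g15260D, averaged 11.2 ± 0.791 FPKM in heat, 6.20 ± 0.131 in drought and 5.22 ± 0.087 in control (0.97 ± 0.088 in heat against control). BnaA09g40710D, with 5.62 ± 0.595 FPKM in heat, 2.1 ± 0.126 in drought and 2.72 ± 0.851 in control, was called higher in heat against drought (1.09), but not with TMM factors (0.87) or quantile normalization (0.84).

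ELF4 (AT2G40080), a small protein of the evening complex, was called in no comparison by its sum. Its sum was 18.1, 11.6 and 19.0 FPKM in heat, 13.9, 15.4 and 19.4 FPKM in drought, and 7.59, 11.6 and 8.28 FPKM in control. Heat and drought overlapped, heat replicate 2 and control replicate 2 were at about the same level, and all drought libraries were above control. The change was 0.75 ± 0.187 in heat against control (adjusted p = 0.00278), 0.77 ± 0.187 in drought against control (adjusted p = 0.0035) and -0.02 ± 0.187 in heat against drought (adjusted p = 0.933). Because the coding sequence is short, these sums rest on 213 reads in heat, 208 in drought and 120 in control.

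The ELF4 copies differed among themselves. BnaA05g05560D, the most abundant, had 8.59, 6.76 and 11.4 FPKM in heat, 7.69, 8.53 and 12.8 FPKM in drought, and 4.61, 7.99 and 3.68 FPKM in control, and was called in no comparison. BnaC04g05320D had 5.88, 2.1 and 5.26 FPKM in heat, 0, 0.948 and 0.229 FPKM in drought, and 1.15, 0.913 and 2.30 FPKM in control. It rose by 1.10 ± 0.336 in heat against control (adjusted p = 0.013) on 58 reads against 19, a call that ended with TMM factors (0.96), with quantile normalization (0.95), with a pseudocount of 0.1 (1.51, not past the adjusted p), without control replicate 2 (0.94) and without heat replicate 1 (0.88) or 3 (0.95), and by 1.93 ± 0.336 in heat against drought (adjusted p = 0.000339). BnaC04g56730D ran the other way, with 0.684, 0.470 and 0.461 FPKM in heat, 2.91, 3.11 and 3.00 FPKM in drought, and 0, 1.61 and 1.16 FPKM in control. It rose by 1.17 ± 0.286 in drought against control (adjusted p = 0.00593), a call lost without control replicate 1 (0.75), and fell by 1.38 in heat against drought (SE 0.286, adjusted p = 0.00117). BnaA04g22640D averaged 1.36 ± 0.580 FPKM in heat, 2.80 ± 0.395 in drought and 1.14 ± 0.233 in control. Of the other 4 copies, 1 was at 0 in all libraries and 3 stayed under the filter.

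LUX (AT3G46640), the MYB-type factor that carries the evening complex to DNA, was the least abundant member in heat and in control. Its sum was 3.04, 4.38 and 5.63 FPKM in heat, 1.13, 1.25 and 1.25 FPKM in drought, and 1.08, 0.478 and 0.596 FPKM in control. All heat libraries were above the other groups, and the drought libraries lay just above the highest control library. LUX rose by 1.63 ± 0.189 in heat against control (adjusted p = 5.15e-06), 6.07 times the control mean, on 134 reads against 22. It also rose in heat against drought, by 1.25 ± 0.189 (adjusted p = 5.36e-05), a call that ended with quantile normalization (0.90). The drought change was 0.38 ± 0.189 (adjusted p = 0.104), and 0.55 with an adjusted p of 0.0248 with quantile normalization, under the size for a call in both. Of 4 copies only BnaCnng37560D passed the filter, through the heat libraries alone, with 1.33 ± 0.263 FPKM in heat, 0.584 ± 0.083 in drought and 0.286 ± 0.253 in control. The largest share of the LUX sum in heat lay with BnaA01g19880D, which had 0.694, 1.94 and 2.21 FPKM in heat, 0.421, 0 and 0.401 FPKM in drought, and 0.505, 0.10 and 0.202 FPKM in control.

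**Figure D2:**
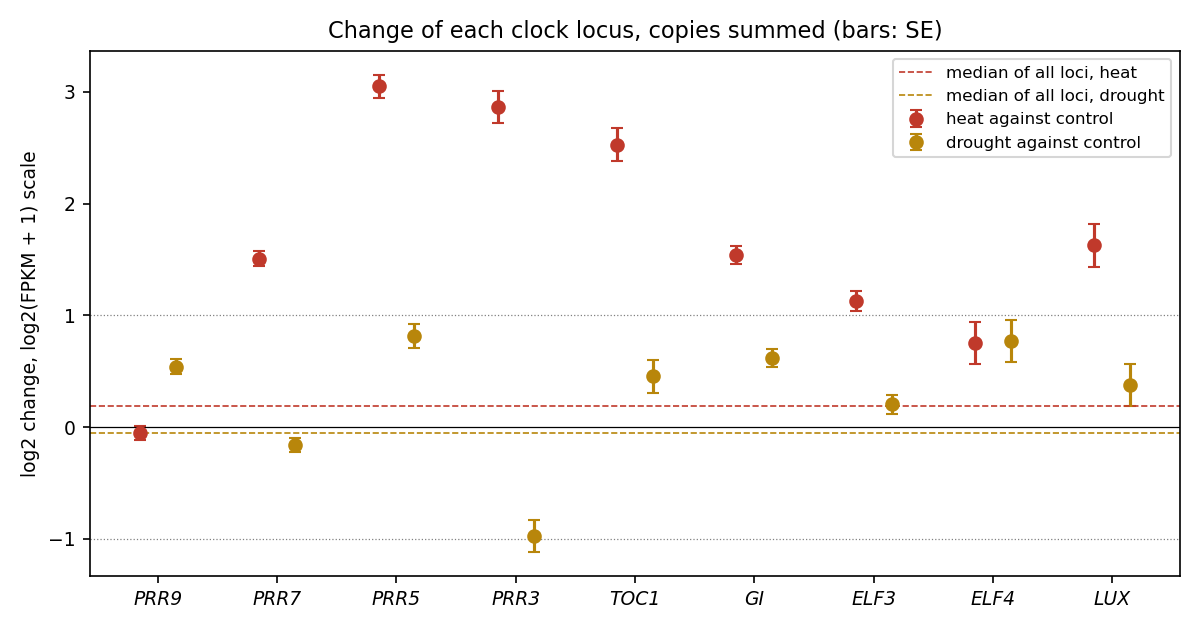
Log2 change of each clock locus on the log2(FPKM + 1) scale, heat against control and drought against control, with the SE as bars, dashed lines at the median of all loci and dotted lines at the size needed for a call. The heat points of 7 loci lie above 1, and the drought points lie between -0.97 (PRR3) and 0.82 (PRR5).

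The order of the levels differed between the groups. In heat it ran PRR7, GI, PRR9, PRR3, ELF3, PRR5, ELF4, TOC1 and LUX by the mean, and the neighbours GI and PRR9, and PRR3 and ELF3, overlapped between libraries. In drought it ran PRR9, PRR7, GI, ELF4, ELF3, PRR5, TOC1, LUX and PRR3, and GI and ELF4, ELF4 and ELF3, TOC1 and LUX, and LUX and PRR3 overlapped. In control it ran PRR7, PRR9, GI, ELF3, ELF4, PRR3, PRR5, TOC1 and LUX, and PRR7 and PRR9, ELF3 and ELF4, and TOC1 and LUX overlapped. PRR3 thus stood at 28.6 ± 0.519 FPKM in heat, level with ELF3, at 1.08 ± 0.149 FPKM in drought, where it was last, and at 3.14 ± 0.897 FPKM in control.

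Over single copies, 29 of the 40 passed the filter of at least 1 FPKM in at least 3 libraries, 6 of them through the heat libraries alone (3 of TOC1, 2 of PRR5 and 1 of LUX). Of the 29, 15 were called higher and 0 lower in heat against control, where 14.4% of all 44260 genes tested were called higher and 11.2% lower (11% and 13.5% with TMM factors). The 15 include the 3 TOC1 copies and BnaA09g04840D of PRR5. These were tested only because of their heat libraries, so their calls add nothing. At an unadjusted p under 0.05, limma had 23 higher and 2 lower, and voom called 0 lower, where it called 6702 of all 42503 genes lower. In drought 2 were called higher, BnaA06g26980D of PRR5 and BnaC04g56730D of ELF4, and 0 lower, with 5.12% of all genes called higher and 6.87% lower. At an unadjusted p under 0.05 limma had 12 higher and 4 lower in drought, and voom called 4 higher and 3 lower. Over all 42503 genes in its fit, voom called 3107 higher and 4876 lower, so lower calls were no more frequent among the clock copies. The further copies that voom called were BnaC07g29960D of PRR5 and BnaA04g22640D of ELF4, higher, and both expressed PRR3 copies and BnaC04g05320D of ELF4, lower. In heat against drought 16 were called higher and 3 lower, against 17.5% and 11.1% of all genes (12.4% and 14.9% with TMM factors). The 16 include the same TOC1 and PRR5 copies and BnaC09g04380D of PRR5, all tested through the heat libraries alone. The 3 lower copies were BnaC04g00640D and BnaA05g01090D of PRR9 and BnaC04g56730D of ELF4.

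**Figure D3:**
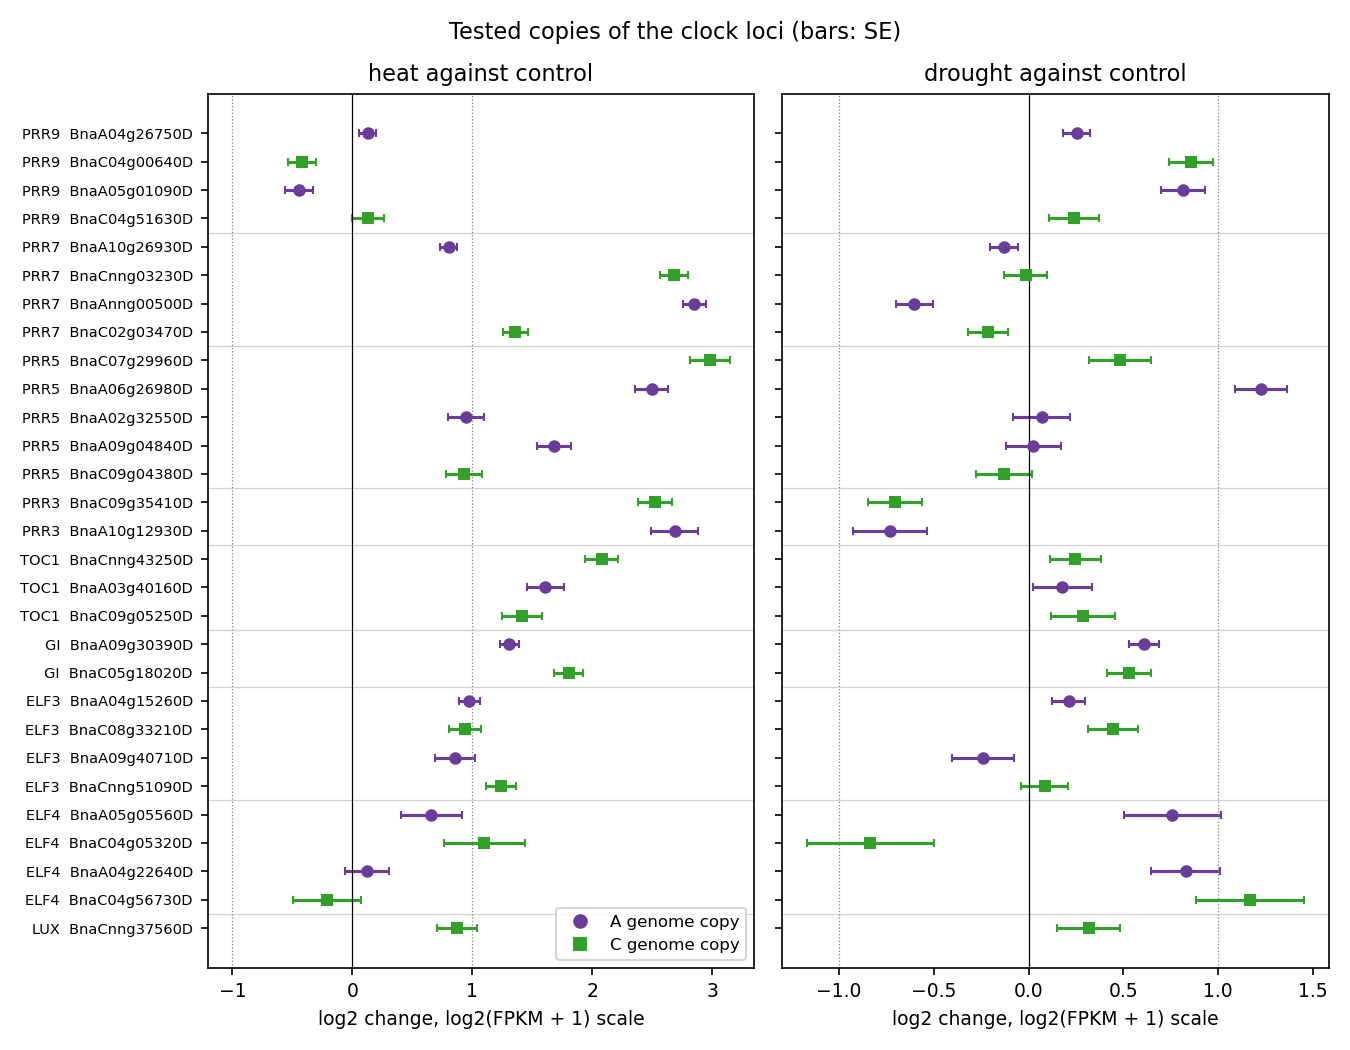
Log2 change on the log2(FPKM + 1) scale of the 29 tested copies, heat against control on the left and drought against control on the right, with SE bars and dotted lines at -1 and 1; circles are A genome and squares C genome copies, ordered by mean level within a locus. In heat the PRR7 copies run from 0.80 to 2.85, and in drought BnaA06g26980D (PRR5) and BnaC04g56730D (ELF4) lie above 1.

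Brassica napus carries an A genome from Brassica rapa and a C genome from Brassica oleracea, named in the gene IDs. Copies of each locus were summed within each genome, and the difference of their responses was tested over 12509 loci with copies in both. PRR7 responded less in its A than in its C copies. The A sum was 88.2 ± 2.97 FPKM in heat, 33.8 ± 3.23 in drought and 38.1 ± 1.52 in control, and the C sum was 41.3 ± 2.73 in heat, 6.27 ± 0.559 in drought and 6.77 ± 0.367 in control. In heat the A copies were at 2.32 and the C copies at 6.09 times their control means, a difference of -1.25 ± 0.102 on the log2 scale (adjusted p = 1.79e-05), and heat against drought gave -1.18 ± 0.102 (adjusted p = 2.37e-05). Within the A genome the copies themselves were unlike, since BnaA10g26930D changed by 0.80 and BnaAnng00500D by 2.85. For PRR5 the difference was -0.61 ± 0.159 in heat against control (adjusted p = 0.0123), under the size for a call except with a pseudocount of 0.1 (-1.15), and -1.05 ± 0.159 in heat against drought (adjusted p = 0.000651), which was not called without drought replicate 2 (-0.90) or without heat replicate 2 (-0.98). The PRR5 A sum was 10.8 ± 1.17 FPKM in heat, 2.92 ± 0.135 in drought and 1.25 ± 0.200 in control. The C sum was 11.3 ± 0.236 in heat, 0.983 ± 0.341 in drought and 0.533 ± 0.084 in control. Outside heat the C sum thus averaged under 1 FPKM, where the pseudocount weighs on the size of these differences. The A share of the PRR5 sum was 49.1% in heat, 74.8% in drought and 70.2% in control. Of the 9 loci, 1 was called lower and 0 higher in heat against control, where 10.4% of all loci were called lower and 4.83% higher, and 2 lower and 0 higher in heat against drought, where it was 10% and 6.08%. Drought against control called 0 either way (2.23% higher and 2.93% lower over all loci), with 1 higher and 2 lower at an unadjusted p under 0.05.

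The difference in response between copies of 1 locus was also tested pair by pair over 53844 pairs, a test added after the copies' values had been seen. Of 39 pairs among the clock loci, 10 were called in heat against control (25.6%, against 24.6% of all pairs), 15 in heat against drought (38.5%, against 26.3%) and 6 in drought against control (15.4%, against 10.9%). In heat against control 4 of the 6 PRR7 pairs were called, led by BnaA10g26930D minus BnaAnng00500D at -2.05 ± 0.134 (adjusted p = 2.35e-06), and 5 of the 10 PRR5 pairs. Of these 5, 3 include BnaA09g04840D or BnaC09g04380D, which passed the filter through the heat libraries alone, so their calls add nothing to those of the copies. Such pairs were also called in drought against control (BnaA06g26980D minus either copy) and in heat against drought (BnaC07g29960D minus BnaC09g04380D), and add nothing either. The 3 ELF4 pairs called in drought against control all include BnaC04g05320D, with 5 reads in drought. The shares above count all these pairs and are not read as an excess. In heat against drought the 4 PRR9 pairs called were those that set BnaC04g00640D or BnaA05g01090D against BnaA04g26750D or BnaC04g51630D, with differences of 1.13 to 1.17 in size. The pair within each kind differed by 0.014 ± 0.141 and -0.019 ± 0.151. No pair of GI, ELF3, PRR3 or TOC1 was called in any of the 3 comparisons.

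**Figure D4:**
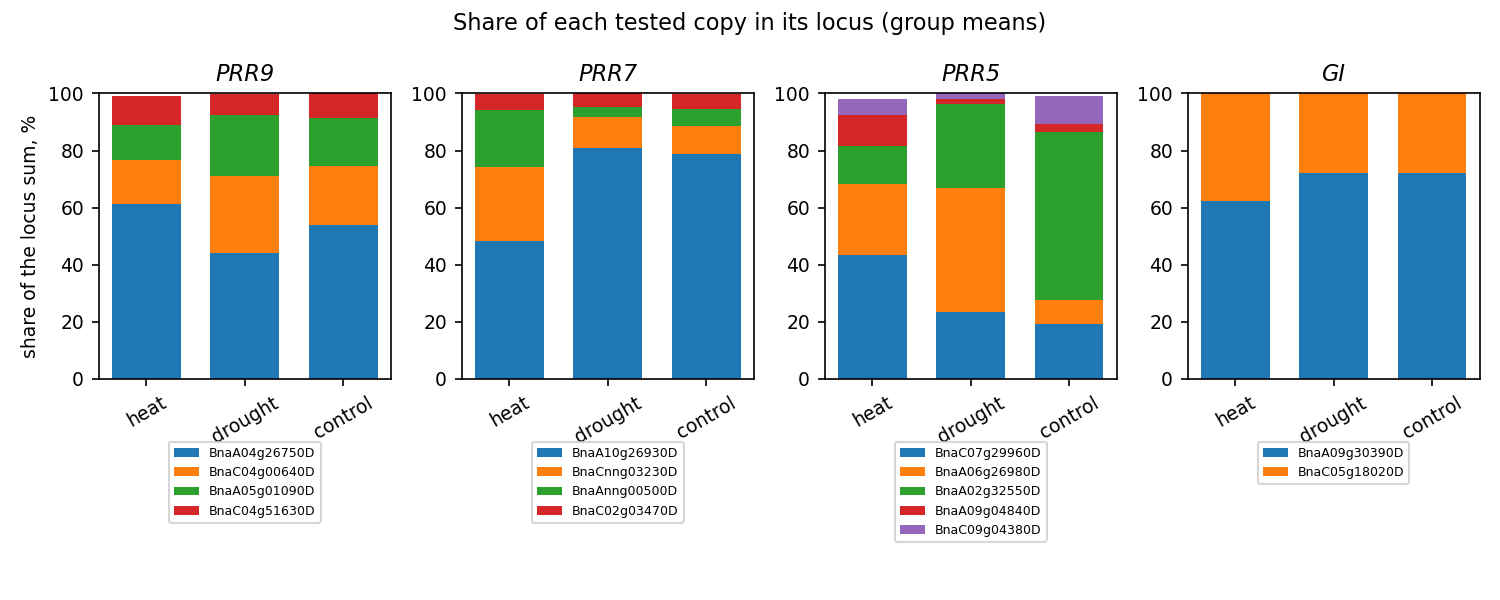
Share of each tested copy in the summed level of its locus (percent, from group means) for PRR9, PRR7, PRR5 and GI in heat, drought and control. BnaA10g26930D of PRR7 holds 48.1% in heat, 80.7% in drought and 78.8% in control, and the leading PRR5 copy differs in each group.

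The choice did not use the domain names in the table. They follow from the same protein sequences as the match, so they are no separate support for it. The table's domain column gives the CheY-like (receiver) fold for 17 of 22 copies of the PRR loci, the GIGANTEA name for both GI copies, the Myb domain for all 4 LUX copies and the DUF1313 family for all 8 ELF4 copies. Some matches are doubtful. BnaC07g09380D and BnaC03g54820D cover 6.20% of the Arabidopsis PRR9 protein, the first is annotated as an autophagy protein Atg8, and both were under the filter with at most 4 reads in a group. BnaC04g51630D has 861 residues, against 397 to 461 in the other tested PRR9 copies. Leaving out all copies that cover under 50% of the Arabidopsis protein changed no call of a locus, and could hardly do so. It took out BnaC07g09380D, BnaC03g54820D and the PRR3 copy BnaA02g06500D, which was at 0 in all libraries. BnaC04g51630D was kept. Copies of 1 locus are alike in sequence, and how reads were shared between them is not given in the sources used here, so values of single copies are less certain than the sums.

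The morning genes stood on the other side in heat. Of 14 morning loci (CCA1, LHY, 8 REVEILLE and 4 LNK genes), 10 fell and 1 rose (RVE7) in heat against control, where 10.4% of all loci were called lower and 14.5% higher. In heat against drought 12 fell and 0 rose, where it was 10.2% and 18%. In drought against control 3 rose (RVE2, RVE5 and RVE7) and 0 fell, where 5.08% of all loci were called higher and 7.31% lower. LHY had 5.14, 5.01 and 4.32 FPKM in heat, 280, 281 and 250 FPKM in drought, and 325, 329 and 328 FPKM in control, and fell by 5.82 in heat against control (SE 0.062, adjusted p = 1.42e-15). CCA1 had 15.2, 15.9 and 13.9 FPKM in heat, 91.6, 94.2 and 86.2 FPKM in drought, and 74.9, 77.1 and 73.8 FPKM in control, and fell by 2.26 (SE 0.059, adjusted p = 2.38e-12). In drought CCA1 changed by 0.27 and LHY by -0.28, both under the size for a call.

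**Figure D5:**
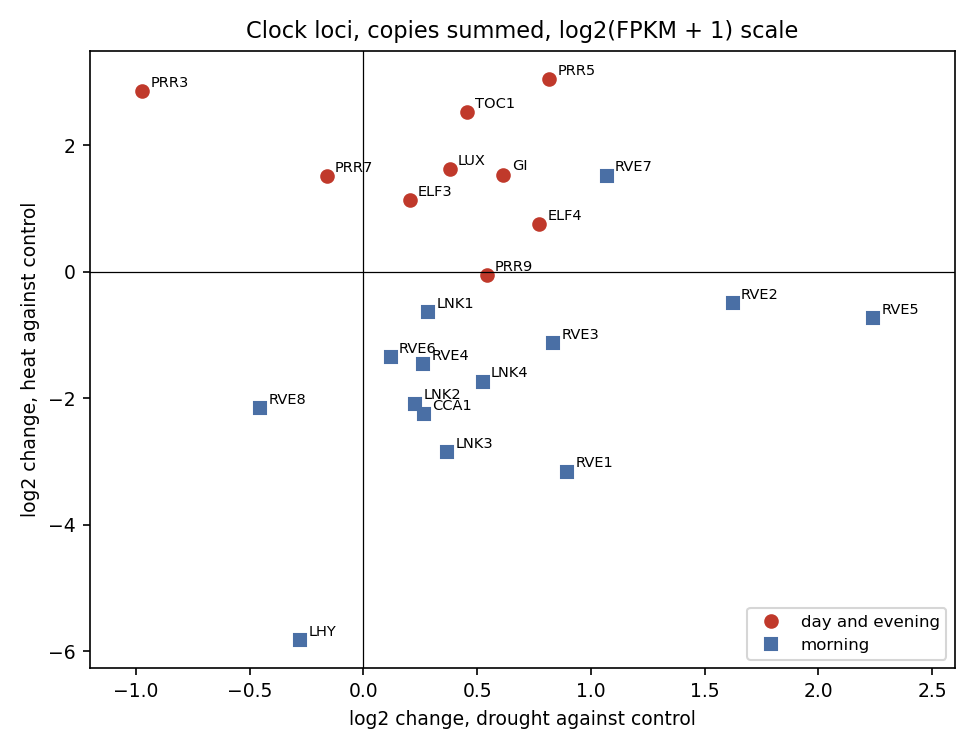
Each point is a clock locus (copies summed), placed by its log2 change in drought against control (horizontal) and in heat against control (vertical), both on the log2(FPKM + 1) scale. The day and evening loci lie between -0.05 (PRR9) and 3.05 (PRR5) in heat, and the morning loci between -5.82 (LHY) and 1.52 (RVE7).

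Of 7 relatives of the members, 4 had rows, and BOA, EFL3 and FKF1 were not analysed here. EFL1, a homologue of ELF4, had 22.8, 24.0 and 25.7 FPKM in heat, 34.1, 23.5 and 32 FPKM in drought, and 2.24, 3.13 and 4.07 FPKM in control. Both treated groups were far above control and overlapped with each other. EFL1 rose by 2.63 ± 0.160 in heat (adjusted p = 1.1e-08) and by 2.90 ± 0.160 in drought (adjusted p = 7.22e-09). ELF4 itself was called in neither. Its changes of 0.75 in heat and 0.77 in drought passed the adjusted p (0.00278 and 0.0035) but not the size limit. The difference between the 2 loci was not tested. LKP2, a homologue of ZTL, averaged 29.8 ± 1.39 FPKM in heat, 33.3 ± 0.540 in drought and 24.6 ± 0.610 in control, a level called in no comparison. EFL2 averaged 3.58 ± 1.02 FPKM in heat, 5.64 ± 0.597 in drought and 6.49 ± 0.512 in control, and EFL4 averaged 17.6 ± 2.74 in heat, 10.6 ± 1.02 in drought and 9.14 ± 3.23 in control. Neither EFL2 nor EFL4 was called in heat or drought against control.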

How the data were processed

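The 9 libraries were of Brassica napus leaf RNA. Alignment was done with HISAT2, per the submitters' processing notes, and for its version, the build, the annotation and the read counter the entry is: not given in the sources used here. No label names the unit. The values deposited by the authors behave as FPKM, since multiplied by coding length they were whole multiples of a single step in a library for 99.42% to 99.46% of the genes above 0 (tolerance 0.01). Whole reads were thus recovered in every library for 88011 genes (99.6% of the genes whose coding length is known), but reads and fragments cannot be told apart here. The authors' deposited table also gives, as percent, the part of the Arabidopsis protein that each match covers. The column names fit both species of the series, and they were read as Brassica napus from the gene models and from a code shared with those sample titles.

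Levels entered as log2(FPKM + 1). A limma model (version 3.58.1, R 4.3.3) with the 3 group means, trended and robust variance moderation and Benjamini-Hochberg adjustment over all features was fitted to genes, to locus sums, to A minus C responses and to copy pairs that reached 1 FPKM in 3 or more libraries. The code was tested on simulated data. Alternatives were TMM factors, quantile normalization, another pseudocount (0.1), other filters (none, or 5 FPKM), moderation without trend or robustness, a replicate block, a fit of only the groups compared, no fold threshold, voom on the recovered reads and omission of each library. Restriction to copies covering at least 50% of the Arabidopsis protein was added after the data were seen. Figures were drawn with Matplotlib 3.10.9.

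The members, gene lists and alternatives were chosen with earlier results of these data known. Copies are named that were the most abundant of their locus, were called in a comparison or held the largest share in a group; any other copy was named after its values were seen. For each called locus the closest loci were sought by Euclidean distance.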

Additional observations from a re-analysis of the deposited data

How the results depend on the processing

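Of the 29 tested copies, 9 locus sums and their A minus C differences, none changed direction under any alternative where it was called. The exception among copy pairs was BnaA06g26980D minus BnaC09g04380D in heat against drought, 0.21 as reported and -1.41 with a pseudocount of 0.1. Only the pseudocount differs between these 2 fits. BnaC09g04380D averaged 0.071 FPKM in drought and 1.24 in heat, and BnaA06g26980D averaged 1.70 and 5.48. The difference of a pair with a copy so near the floor depends on the pseudocount. Counts over the clock genes moved as follows, and where the filter of 5 FPKM lowers them fewer features were tested. Copies in drought (2 higher, 0 lower) gave 4 higher with a pseudocount of 0.1 and with voom, 1 with the filter of 5 FPKM and 11 with no fold threshold, and 3 lower with a pseudocount of 0.1, with voom and with no fold threshold; leaving out each library gave 1 to 3 higher and 0 to 1 lower. Copies in heat (15 higher) gave 9 with the filter of 5 FPKM and 23 with no fold threshold, where 2 were lower, and in heat against drought (16 higher) 9 with that filter. Leaving out each library gave 10 to 18 higher in heat. Without a heat library, the 6 copies that passed the filter through the heat libraries alone were not tested, which lowers the count. Loci in drought had 1 higher and 1 lower with a pseudocount of 0.1 and with voom, and 5 higher and 2 lower with no fold threshold; leaving out each library gave 0 to 1 lower. Loci in heat against drought had 1 lower with no fold threshold.

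A minus C differences in heat had 2 lower with a pseudocount of 0.1 and 4 with no fold threshold, and heat against drought had 1 higher with no fold threshold and 1 to 2 lower without each library. Copy pairs in drought (4 higher, 2 lower) had 0 and 0 with the filter of 5 FPKM, 0 and 1 with only the groups compared, and 8 and 7 with no fold threshold. Copy pairs in heat (4 and 6) had 1 and 3 with that filter and 8 and 14 with no fold threshold, with 2 higher under TMM factors. Under TMM factors and with only the groups compared, some pairs fell below the filter and were not tested. No pair tested there changed its call. In heat against drought (6 and 9) they had 3 and 4 with that filter, and 16 lower with no fold threshold. Leaving out each library gave 2 to 4 pairs higher in drought and 1 to 5 higher in heat. Without a heat library, pairs with a copy that passed the filter through the heat libraries alone were not tested.

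Same-numbered replicates showed no shared deviation (correlations of -0.007 to 0.034). The labels do not say whether they were taken or prepared together, and these correlations cannot exclude it. With a replicate block 7 loci were higher in heat, 0 either way in drought and 5 higher in heat against drought, and the block changed no call of a locus or copy. Over all genes, drought called 3039 lower, 4813 with a pseudocount of 0.1 and 4876 with voom. Depth was lowest for LUX (22 reads in control), TOC1 (53 in control), PRR3 (58 in drought), PRR5 (109 in control) and ELF4 (120 in control). Voom was not run for differences between copies or genomes.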

Other observations

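Of 11 further clock regulators, 9 were tested. In heat 1 rose and 0 fell, a share no higher than the 14.5% of all loci called higher and 10.4% called lower, and 0 were called in drought, where it was 5.08% and 7.31%. The 1 was PRMT5, an arginine methyltransferase that shapes splicing of clock transcripts in Arabidopsis, with 63.0 ± 1.27 FPKM in heat, 12.7 ± 0.864 in drought and 15.7 ± 1.59 in control, a rise of 1.94 in heat against control (SE 0.078, adjusted p = 1.5e-10). Of 8 genes driven by the clock, 6 were tested, and 4 rose (GRP7, GRP8, COR27 and CCL) and 1 fell (CDF1) in heat, while 1 rose in drought, FT, the mobile flowering signal. GRP7, an RNA-binding protein that feeds back on its own transcript, had 1927 ± 92.0 FPKM in heat, 10.1 ± 1.53 in drought and 18.3 ± 1.99 in control, a rise of 6.65 in heat against control. FT, named after its values were seen, averaged 4.95 ± 0.735 FPKM in heat, 78.1 ± 4.43 in drought and 8.92 ± 0.787 in control.

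The loci whose pattern over the 9 libraries was closest to each called clock locus, out of 16126 searched, are given as a description of these libraries. Closest to PRR7 was AT3G50040 (distance 0.151), with 6.17 FPKM in heat, 1.33 in drought and 1.49 in control, followed by AT2G46220 (0.185), with 141 FPKM in heat, 44.0 in drought and 47.6 in control. Closest to PRR5 was RD19, a papain family cysteine protease (0.38), with 202 FPKM in heat, 36.0 in drought and 21.7 in control. PRR3 lay nearest FTSZ2-1, a plastid division protein (0.501), with 73.3 FPKM in heat, 4.60 in drought and 9.27 in control, and TOC1 nearest the purine permease PUP10 (0.321), with 89.97 FPKM in heat, 19.0 in drought and 14.9 in control. GI lay nearest the RNA-binding protein AT2G43370 (0.261), ELF3 nearest AT1G14650 (0.23) and LUX nearest AT4G26220 (0.44).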
